A study of Mus musculus with 16 samples.

Results

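The genes described here are 7 cadherins, Cdh1, Cdh2, Cdh3, Cdh4, Cdh6, Cdh11 and Cdh13, taken by symbol from the deposited gene table of an epicardial cell line. All 7 are among its 46348 genes. Of these 7, Cdh2, Cdh3 and Cdh11 were expressed and tested, and the other 4 had at most 5 counts in any of the 16 libraries. Cadherins are calcium-dependent adhesion proteins of the cell surface. The classical ones bind the same cadherin on the neighbouring cell and hold catenins, and through them actin, on the inside, which builds the adherens junction. In an epithelial to mesenchymal transition, cells typically lose E-cadherin (Cdh1) and often P-cadherin (Cdh3) and gain N-cadherin (Cdh2) or cadherin-11 (Cdh11), which is called the cadherin switch. The epicardium, the mesothelial sheet on the heart, goes through such a transition when its cells leave the sheet. Cdh13 (T-cadherin) belongs to the set by name only: it has no cytoplasmic tail and is held in the membrane by a lipid anchor.

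RNA was sequenced after poly(A) enrichment from MEC1, an established mouse epicardial line. Cells were given control siRNA, PRMT1 siRNA, p53 siRNA, or PRMT1 and p53 siRNA together, each without and with TGF-beta, which makes 8 groups of 2 libraries. Every group is the same line and received an siRNA, and TGF-beta dose and time are not given in the sources used here. The labels call the 2 libraries of a group biological replicates but do not say that they came from separate cultures. A p-value thus sets a difference between groups against the spread of these libraries within groups, estimated over all 8 groups. PRMT1 is an enzyme that methylates arginine in proteins, p53 is the tumour suppressor encoded by Trp53, and TGF-beta is a growth factor that drives the epicardial transition. The question followed here is how the cadherin genes responded to TGF-beta and whether either siRNA altered that response.

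Library totals ran from 19617874 to 30759317 counts, and 15494 genes passed the low-count filter. Prmt1 stood at 37.5% to 48.1% of the matching control siRNA group in the 4 groups given its siRNA. Trp53 stood at 40.2% without and 44.9% with TGF-beta under p53 siRNA alone, and at 65.5% and 60.8% under both siRNAs. Replicate 2 of p53 siRNA with TGF-beta stood apart, at 0.805 from its partner (root mean square over genes, log2), where partners in the remaining groups lay 0.341 to 0.426 apart. It also read long transcripts low, by 0.31 (log2) at the length of Cdh11, against -0.09 to 0.09 in the other libraries. Values without it are therefore given where they differ. The fit of 16 libraries estimates spread over all groups, so this library enters the standard error of every comparison, also those without its group. The common coefficient of variation between replicates was 0.114 with 16 libraries and 0.0604 without it. Epicardial markers summed to 2307 to 2384 CPM (counts scaled to library size, with TMM factors for composition) with control siRNA and to 456 to 461 CPM with TGF-beta, with 10 to 12 of 12 genes at 1 CPM or more in every group and Krt19 and Aldh1a2 the lowest. Endothelial markers summed to 4.16 to 9.29 CPM, mostly Kdr (Tie1 at 0 in all 16 libraries), and haematopoietic ones to 1.75 to 4.16 CPM (Ptprc at 0 in 10). Of the cardiomyocyte list Tnnt2 alone passed 1 CPM, at 1.95 to 140 CPM, and of the epithelial list Krt14 alone, at 38.0 to 99.1 CPM, with Epcam, a defining epithelial gene, at 0 in 13 libraries and Esrp1 at 0 in all 16. The part of these shifts in the cadherin results was not tested.

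Cdh1 encodes E-cadherin, the cadherin whose loss defines the classical switch, and it lies on chromosome 8 at 106603351 to 106670246 (mm10, plus strand). It had 27 counts in all 16 libraries together, at most 5 in any one, and none in 3. The 8 libraries without TGF-beta held 14 of these counts and the 8 with TGF-beta held 13. A level below 3 counts, which is 0.0942 to 0.163 CPM depending on the library, cannot be told from 0 here, so Cdh1 was at or near that limit before TGF-beta was added and a loss of Cdh1 could not have been detected.

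Cdh4 (R-cadherin, first described in retina; chromosome 2, 179442431 to 179899373) had a single count in 1 library. Cdh13 (chromosome 8, 118283733 to 119324921) had 3 counts and Cdh6 (K-cadherin, known from kidney development; chromosome 15, 13034200 to 13173639, minus strand) had 5, at most 2 in a library. None of the 4 genes passed the filter, and no fold change is given for any of them.

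Cdh6 sits on chromosome 15 with 4 other type II cadherin genes, Cdh9, Cdh10, Cdh12 and Cdh18. These 5 genes are spread from 13034200 to 23474418 and behaved differently. Cdh6, Cdh9 and Cdh12 had at most 2, 1 and 1 counts in any library, while Cdh10 and Cdh18 passed the filter and changed with TGF-beta. Cdh10 went from 1.42 ± 0.187 CPM (SD, n = 2) with control siRNA to 26.4 ± 0.632 CPM with TGF-beta. The RefSeq sequences of the 250 bases upstream of the Cdh6 and Cdh10 starts (GRCm38.p6, 5′ to 3′ in the direction of the gene) are shown. They set a silent gene beside the cadherin with the largest rise, with CG dinucleotides in capitals. The Cdh6 window is chr15:13173676-13173925 on the minus strand, and the Cdh10 window is chr15:18820079-18820328 on the plus strand, inside the gene as the deposited table places it (18818947 to 19014236).
Cdh6: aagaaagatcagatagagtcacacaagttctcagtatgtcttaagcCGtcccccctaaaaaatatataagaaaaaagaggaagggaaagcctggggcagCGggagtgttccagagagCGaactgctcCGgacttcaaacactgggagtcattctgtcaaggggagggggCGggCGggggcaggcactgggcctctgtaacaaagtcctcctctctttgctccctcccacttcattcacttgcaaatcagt
Cdh10: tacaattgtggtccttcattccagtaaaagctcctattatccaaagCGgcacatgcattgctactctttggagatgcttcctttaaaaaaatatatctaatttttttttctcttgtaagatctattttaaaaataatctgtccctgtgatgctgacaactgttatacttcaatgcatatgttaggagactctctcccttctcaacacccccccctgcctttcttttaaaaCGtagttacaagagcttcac
The silent gene's window holds 6 CG and the other 2, against a median of 6 over 32851 such windows. CACCTG, which Snail and Zeb factors bind, is in neither window on either strand and is in 17.2% of all windows. TGANTCA (AP-1), CAGACA and GTCTAGAC (Smad) are in neither either, and in 6.75%, 17.1% and 0.167% of all windows. Such a match or its absence describes these letters only. A window was at hand for 1 of the 7 genes.

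The expressed cadherins were Cdh11 first, then Cdh3 and Cdh2. Per kilobase of the longest annotated transcript, untreated control cells held 171 CPM of Cdh11, 66.0 of Cdh3 and 42.0 of Cdh2. Over 23 cadherin genes summed on this per-length scale, Cdh11 made up 59.7% ± 1.31 (SD, n = 2), Cdh3 23.1% ± 0.902 and Cdh2 14.7% ± 0.447. With TGF-beta these shares were 70.6% ± 1.38, 11.7% ± 0.573 and 13.8% ± 0.549. The Cdh3 share dropped below that of Cdh2, which moved little. Under PRMT1 siRNA the Cdh3 share was 22.4% without and 19.0% with TGF-beta, and that of Cdh11 57.6% and 58.4%.

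**Figure D1:**
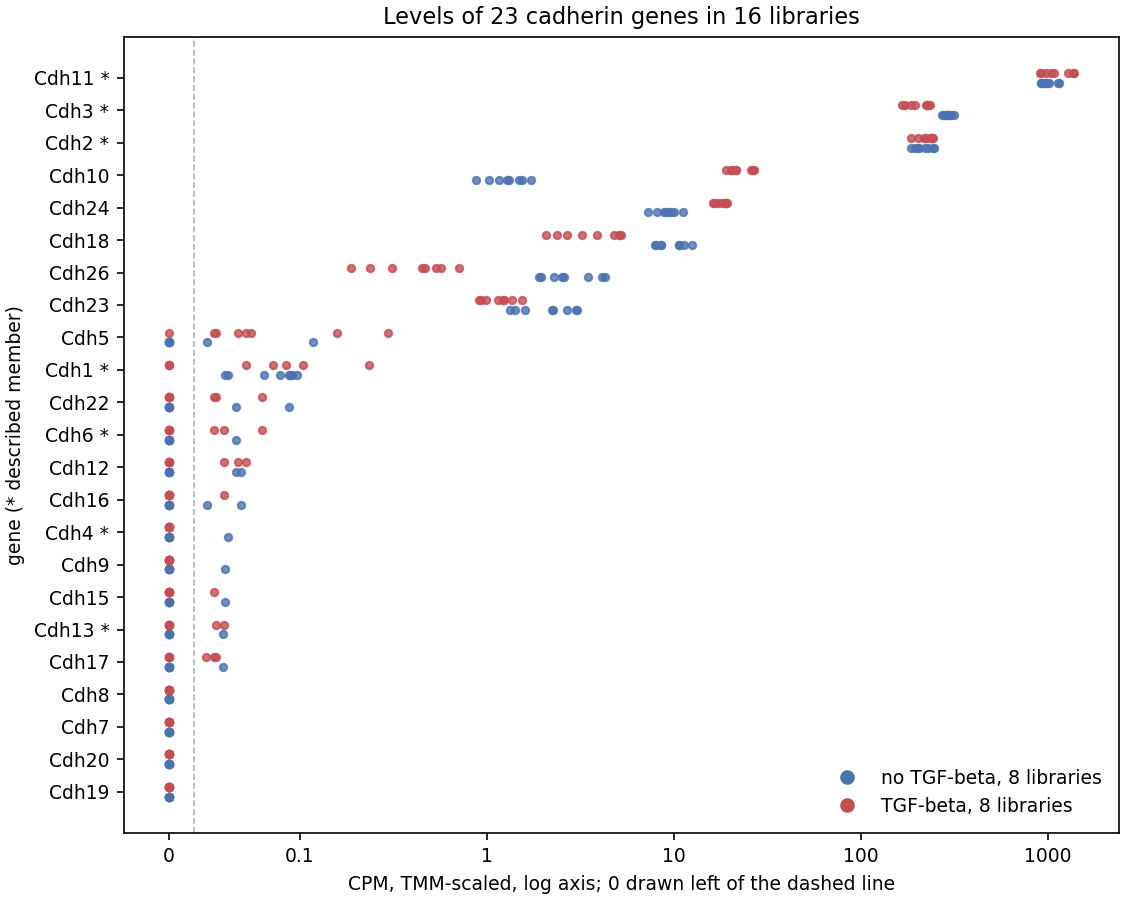
Level of each of 23 cadherin genes (rows, the 7 described genes starred) in 16 libraries, in CPM on a log axis, with zeros drawn left of the dashed line; blue points are the 8 libraries without TGF-beta and red points the 8 with it. Cdh11, Cdh3 and Cdh2 lie above 165 CPM in every library, Cdh10 is separated by colour, with every red point above every blue one, and Cdh1, Cdh4, Cdh6 and Cdh13 lie at or near 0.

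Cdh3 encodes P-cadherin, an epithelial classical cadherin, and lies 46.4 kb upstream of Cdh1 on chromosome 8 (106510913 to 106556908, plus strand). It fell with TGF-beta under every siRNA treatment. The fall was smaller with PRMT1 siRNA than with control siRNA, and the difference between both siRNAs and control siRNA in this response was not tested. With control siRNA its level was 289 and 290 CPM in the 2 libraries without TGF-beta and 172 and 165 CPM in the 2 with it. The libraries did not overlap, and Cdh3 fell by 41.8% (log2 -0.78 ± 0.07 SE, edgeR adjusted p = 2.89e-06). In these bulk libraries, fewer cells that make Cdh3 and less Cdh3 RNA per cell cannot be told apart.

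Under PRMT1 siRNA, Cdh3 read 276 and 289 CPM without TGF-beta and 228 and 232 CPM with it. The groups again did not overlap, but Cdh3 fell by 18.6% (-0.30 ± 0.07, adjusted p = 0.0057). This call was lost without PRMT1 replicate 2 or PRMT1 with TGF-beta replicate 1 (adjusted p = 0.056 for each, 0.0274 to 0.056 over the 4 omissions) and without the low-count filter (0.0819). Under p53 siRNA the values were 312 and 302 CPM without TGF-beta and 185 and 195 CPM with it, where it fell by 38.1% (-0.69 ± 0.07, adjusted p = 6.66e-06), near the size seen with control siRNA. With both siRNAs they were 272 and 297 CPM against 223 and 224 CPM, where it fell by 21.3% (-0.35 ± 0.07, adjusted p = 0.00212).

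The size of the Cdh3 fall differed between PRMT1 siRNA and control siRNA. The interaction of PRMT1 siRNA with TGF-beta was 0.48 ± 0.10 (log2, adjusted p = 0.0266), in a test that called 2.08% of all genes, and Cdh3 was the 1 cadherin of the 3 called in it. Omitting any 1 of the 8 libraries kept the difference at 0.46 to 0.51 but not the call (adjusted p = 0.0898 to 0.142), whereas the 8 other settings all called it (3.32e-06 to 0.0478). Each omission of 1 library called fewer genes in this interaction than the fit of 16 libraries did. For p53 siRNA the same interaction was 0.09 ± 0.10 (adjusted p = 0.567), with a 95% interval of -0.12 to 0.30.

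The same difference can be read from the TGF-beta-treated cells alone, which share libraries with the comparisons above. There Cdh3 was higher with PRMT1 siRNA than with control siRNA, 228 and 232 against 172 and 165 CPM (0.45 ± 0.07, adjusted p = 0.00167), and the call held when any 1 of the 4 libraries was left out (0.0162 to 0.0245). It was higher with both siRNAs as well, at 223 and 224 CPM (0.41 ± 0.07, adjusted p = 0.0027). Without TGF-beta the PRMT1 siRNA difference was -0.03 ± 0.07 (adjusted p = 0.827; 95% interval -0.18 to 0.11). Ordered by mean, Cdh3 was lowest with control siRNA and TGF-beta (168 CPM), then p53 siRNA with TGF-beta (190.1), both with TGF-beta (224) and PRMT1 with TGF-beta (229.9), and none of these 4 groups overlapped its neighbour. Above them lay PRMT1 siRNA (283), both (285) and control (289), whose libraries overlapped, and p53 siRNA (307).

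**Figure D2:**
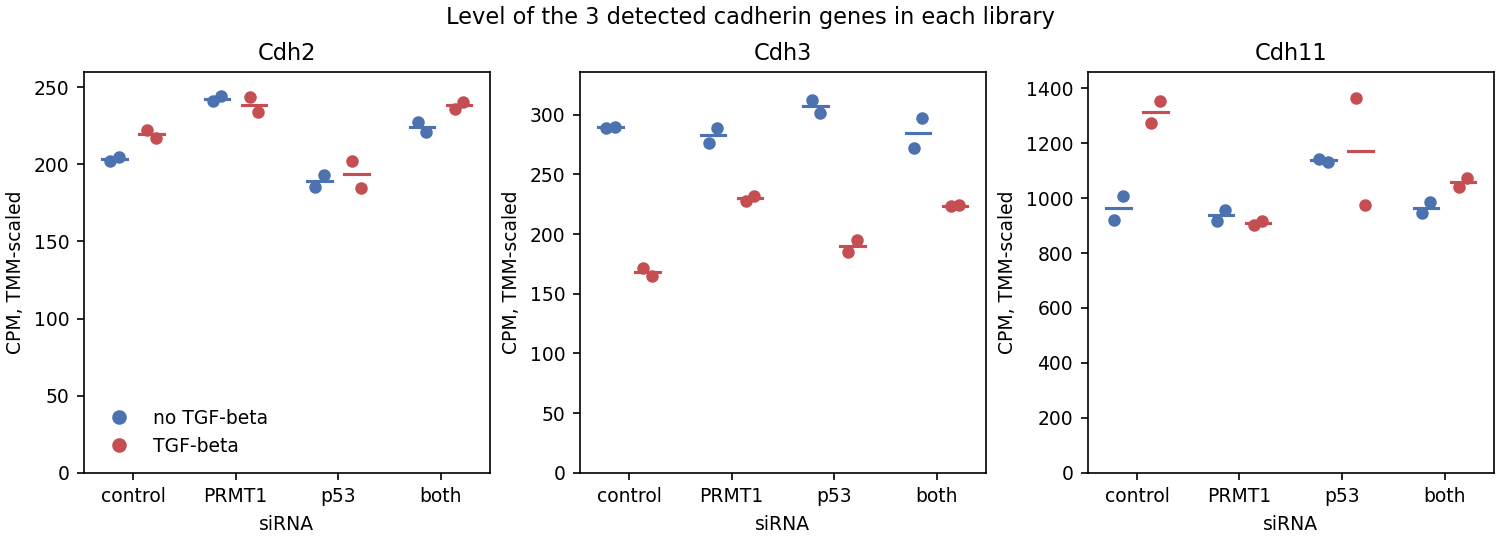
Level of Cdh2, Cdh3 and Cdh11 in CPM (vertical axis, from 0) in each of 16 libraries, by siRNA (horizontal axis) without TGF-beta (blue) and with it (red); points are libraries and bars are means of 2. Cdh3 is lower in red under every siRNA, Cdh11 is higher in red with control siRNA, and the Cdh11 pair of p53 siRNA with TGF-beta lies far apart.

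Cdh11 encodes cadherin-11, a type II cadherin of mesenchymal cells (chromosome 8, 102632995 to 102785111, minus strand), and it was the most abundant cadherin RNA in this line. With control siRNA it rose with TGF-beta, from 920.2 and 1006 CPM to 1275 and 1353 CPM. The libraries did not overlap, and the rise was 36.4% (0.45 ± 0.13, adjusted p = 0.0145). With Cdh3 this made 2 of 3 tested cadherins called in the TGF-beta response with control siRNA, which called 38.4% of all genes. The 8 other settings all called the Cdh11 rise too, at 0.37 to 0.45. The Cdh11 call was lost without control replicate 1 or without control with TGF-beta replicate 2 (adjusted p = 0.108 and 0.0859; 0.0349 to 0.108 over the 4 omissions). The deposited count of Cdh11 was the same number in both untreated control libraries (20801 after rounding), as it was for 18 of 10788 genes with a mean of at least 100 counts there, 0.167%, against 0.019% to 0.354% in the other groups.

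Under the other siRNAs the Cdh11 response was smaller and not called. With PRMT1 siRNA it was 916 and 958 CPM without TGF-beta and 901 and 916 CPM with it (-0.04 ± 0.13, adjusted p = 0.813), and the libraries overlapped. With both siRNAs it was 944 and 985 CPM against 1041 and 1073 CPM (0.13 ± 0.13, adjusted p = 0.475), without overlap. With p53 siRNA it was 1143 and 1130.4 CPM without TGF-beta, and 1365 and 975 CPM with it (0.04 ± 0.13, adjusted p = 0.809). That last value turned on the library that stood apart: without replicate 2 the Cdh11 response under p53 siRNA was 0.26 (adjusted p = 0.011), and without replicate 1 it was -0.22 (0.023), in a fit that called 10075 genes. Offsets that remove each library's trend with transcript length gave 0.19 with 16 libraries and 0.24 with 15, both called (adjusted p = 0.0122 and 0.00278). In the responses with PRMT1 siRNA, p53 siRNA and both, 1 of 3 cadherins was called, Cdh3 each time, against 32.5%, 45.3% and 31.3% of all genes.

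In TGF-beta-treated cells, PRMT1 siRNA lowered Cdh11 from 1275 and 1353 CPM to 901 and 916 CPM. The groups did not overlap, and Cdh11 fell by 30.8% (-0.53 ± 0.13, adjusted p = 0.0172). With Cdh3, 2 of 3 cadherins were called in this comparison, and they moved in opposite directions. It called 15.7% of all genes, and fewer with any 1 of its 4 libraries left out. The 8 other settings all called the Cdh11 fall, at -0.56 to -0.40. Without any 1 of the 4 libraries the Cdh11 fall was -0.57 to -0.48 and no longer called (adjusted p = 0.0688 to 0.105). Whether PRMT1 siRNA changed the Cdh11 response to TGF-beta was tested by the interaction, which was -0.49 ± 0.18 and not called (adjusted p = 0.161; 95% interval -0.88 to -0.10). Its standard error also draws on the p53 siRNA pair with TGF-beta (1365 and 975 CPM), a group outside this interaction. The interaction was called in 4 of the other settings, each of which called more genes in all in it than the fit of 16 libraries. These were only the groups compared, 15 libraries and both length-offset fits. With length offsets it was -0.30. Its adjusted p ran from 0.00184 to 0.207 over the 8 other settings. The order by mean ran from PRMT1 siRNA with TGF-beta (909 CPM) through PRMT1 (937), control (963) and both (965), each overlapping the next, then both with TGF-beta (1057), p53 (1137), p53 with TGF-beta (1170.2) and control with TGF-beta (1314), the last 3 overlapping in turn.

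Cdh2 encodes N-cadherin, the cadherin of heart muscle and nerve that the switch is expected to raise (chromosome 18, 16588877 to 16809246, minus strand). It was present before TGF-beta and moved little. With control siRNA it read 202 and 205 CPM without TGF-beta and 222 and 217 CPM with it. The libraries did not overlap, but the difference of 7.93% was not called (0.11 ± 0.07, adjusted p = 0.224; 95% interval -0.04 to 0.26).

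With PRMT1 siRNA Cdh2 read 241 and 244 CPM without TGF-beta and 243 and 234 CPM with it (-0.02 ± 0.07, adjusted p = 0.803). With p53 siRNA it read 185 and 193 CPM, and 202 and 185 CPM with TGF-beta (0.03 ± 0.07, adjusted p = 0.723), and with both siRNAs 227 and 221 CPM, and 236 and 240.3 CPM with TGF-beta (0.09 ± 0.07, adjusted p = 0.355). A TGF-beta response of Cdh2 was thus not called under any siRNA, and the upper end of its 95% interval was 0.26 (log2) or lower in each. With length offsets and 16 libraries the response under p53 siRNA was 0.14 and called (adjusted p = 0.0481, 0.0481 to 1 over the 8 other settings), and under PRMT1 siRNA it was 0.06 in both length-offset fits, the reverse sign.

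PRMT1 siRNA without TGF-beta raised Cdh2 from 202 and 205 CPM to 241 and 244 CPM, a rise of 19.2% with no overlap (0.25 ± 0.07, adjusted p = 0.034). This comparison called 10.3% of all genes, and fewer with any 1 of its 4 libraries left out. Cdh2 was the 1 cadherin of 3 called in it. The call was lost without any 1 of the 4 libraries (adjusted p = 0.14 to 0.191), with RLE size factors (0.0544), without the low-count filter (0.226) and with a replicate block (0.053), while the size stayed at 0.20 to 0.27. With TGF-beta the PRMT1 siRNA difference in Cdh2 was 0.12 ± 0.07 (adjusted p = 0.229), and it was called with only the groups compared (0.11, 0.0312) and in both length-offset fits (0.19, 0.0257 and 0.00319). Ordered by mean, Cdh2 was lowest with p53 siRNA (189 CPM), p53 with TGF-beta (193) and control (203), which overlapped in turn. It then rose through control with TGF-beta (219.6) and both (224), which overlapped, to both with TGF-beta (238), PRMT1 with TGF-beta (239) and PRMT1 alone (243), which overlapped.

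**Figure D3:**
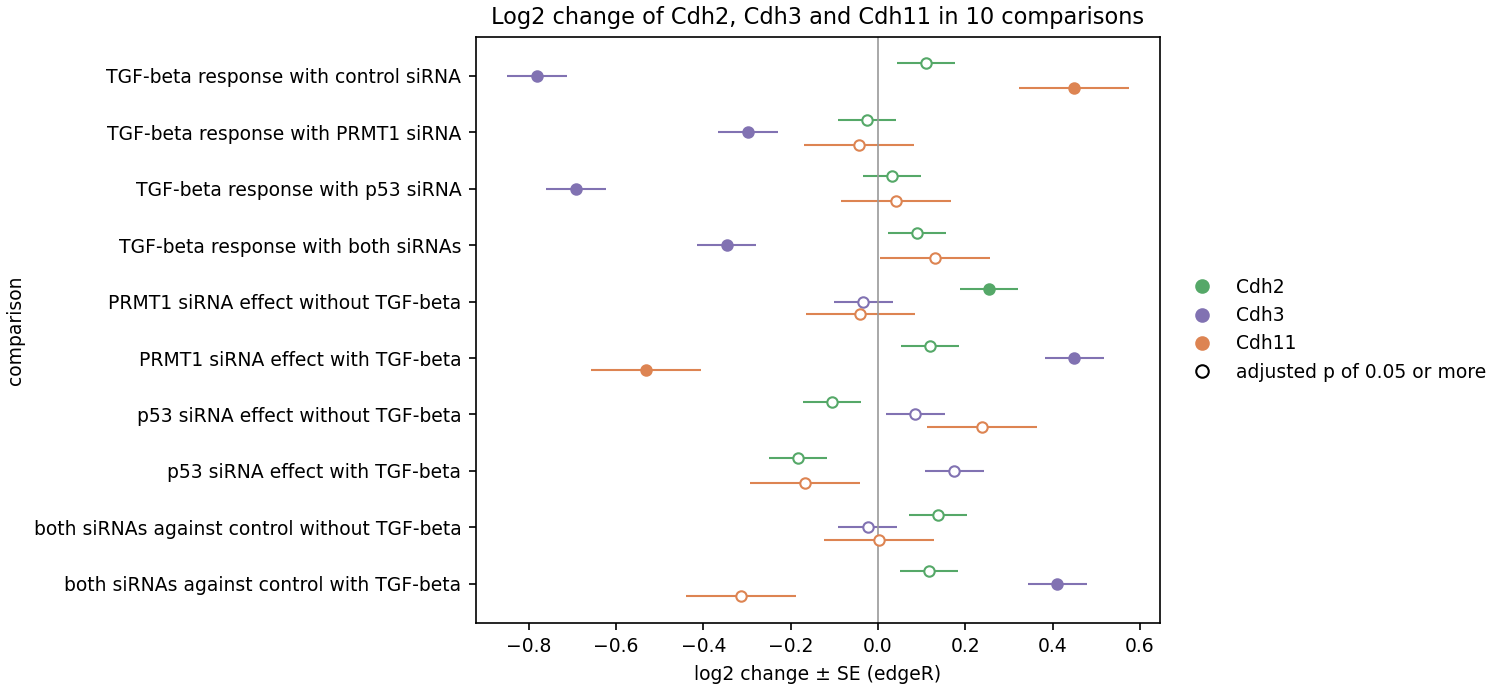
Log2 change (horizontal axis) with its standard error for Cdh2, Cdh3 and Cdh11 in 10 comparisons (vertical axis), from edgeR on 16 libraries with 2 per group; filled points have an adjusted p under 0.05. Cdh3 is filled and left of 0 in the 4 TGF-beta responses, at -0.78, -0.30, -0.69 and -0.35, and filled and right of 0 where PRMT1 siRNA was compared within TGF-beta-treated cells.

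p53 siRNA alone changed none of the 3 cadherins by the edgeR test, without TGF-beta (0 called, 0 with an unadjusted p under 0.05, 0 by DESeq2; 2.47% of all genes called) or with it (0 called, 2 with an unadjusted p under 0.05, 1 by DESeq2; 5.21% of all genes). Without TGF-beta Cdh11 was 1143 and 1130.4 CPM against 920.2 and 1006 CPM (0.24 ± 0.13, adjusted p = 0.451). With 15 libraries it was 0.22 and called, in a fit that called more genes in all than the fit of 16 libraries. Over the 8 other settings the difference was 0.20 to 0.24. With TGF-beta Cdh2 stood at -0.18 ± 0.07 (adjusted p = 0.114; 0.0238 by DESeq2), Cdh3 at 0.18 ± 0.07 (0.13) and Cdh11 at -0.17 ± 0.13 (0.369). The values changed with the library that stood apart. Without p53 with TGF-beta replicate 2 Cdh11 was 0.05 and no cadherin was called, and without replicate 1 Cdh11 was -0.43 and all 3 were called, in a fit that called 8622 genes in all against 808 with 16 libraries.

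With both siRNAs and no TGF-beta, 0 of 3 cadherins were called by edgeR (0 with an unadjusted p under 0.05, 0 by DESeq2). Over all genes edgeR called 4.45%, 2893 had an unadjusted p under 0.05 and DESeq2 called 1048. With TGF-beta 1 was called, Cdh3, in a comparison that called 13.1% of all genes. Cdh11 was 1041 and 1073 CPM there against 1275 and 1353 CPM (-0.31 ± 0.13, adjusted p = 0.129), and it was called with only the groups compared, with 15 libraries and with length offsets in both fits (adjusted p = 0.000336 to 0.166 over the 8 other settings). Each of those settings also called more genes in all in that comparison than the fit of 16 libraries. Adding p53 siRNA to PRMT1 siRNA gave 0 of 3 calls by edgeR without and with TGF-beta (0 with an unadjusted p under 0.05 and 0 by DESeq2 in each). Over all genes edgeR called 0.865% and 0.452%, 2382 and 1621 had an unadjusted p under 0.05, and DESeq2 called 554 and 225. For Cdh3 the difference on adding p53 siRNA was 0.01 ± 0.07 without and -0.04 ± 0.07 with TGF-beta, with 95% intervals of -0.14 to 0.16 and -0.19 to 0.11. Trp53 itself changed by -0.66 ± 0.09 without and -1.08 ± 0.09 with TGF-beta on this addition. Under p53 siRNA against control siRNA it changed by -1.32 ± 0.09 and -1.16 ± 0.09.

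The remaining interactions gave 0 of 3 calls by edgeR and by DESeq2. For p53 siRNA with TGF-beta 1 cadherin had an unadjusted p under 0.05, Cdh11 at -0.41 ± 0.18 (adjusted p = 0.258; 1.02% of all genes called). For PRMT1 with p53 siRNA the count at an unadjusted p under 0.05 was 0 without TGF-beta (0% of all genes called) and 1 with it (0.762%), Cdh3 at -0.21 ± 0.10 (adjusted p = 0.177). Over all genes tested, 2911 had an unadjusted p under 0.05 for p53 siRNA with TGF-beta. For PRMT1 with p53 siRNA 1192 did without TGF-beta and 4264 with it. DESeq2 called 501, 52 and 995 genes in these 3 interactions. Without p53 with TGF-beta replicate 2, the library that stood apart, the p53 siRNA interaction of Cdh11 was -0.17 (adjusted p = 0.506). Without replicate 1 it was -0.66 and called (0.000126), in a fit that called 7717 genes against 158 with all 16 libraries.

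The ratio of Cdh2 to Cdh3 per kilobase sums up the balance of the 2 classical type I cadherins. It was 0.633 and 0.641 with control siRNA and 1.17 and 1.19 with TGF-beta. With PRMT1 siRNA it was 0.789 and 0.766, and 0.968 and 0.911 with TGF-beta. With p53 siRNA it was 0.536 and 0.580, and 0.987 and 0.858 with TGF-beta, and with both 0.756 and 0.672, and 0.956 and 0.970. This ratio was higher with TGF-beta in each of the 4 siRNA treatments, without overlap, and the step was largest with control siRNA. Cdh2 passed Cdh3 per kilobase in the control siRNA libraries with TGF-beta alone, which depends on the transcript lengths taken (4.84 and 4.38 kb). In CPM, not divided by length, the Cdh2 mean was above the Cdh3 mean with TGF-beta under every siRNA. With TGF-beta the means were 239 against 229.9 CPM with PRMT1 siRNA, 193 against 190.1 with p53 siRNA and 238 against 224 with both. Without TGF-beta the Cdh2 mean was below that of Cdh3 under every siRNA. Between the groups without and with TGF-beta the ratio moved mainly with Cdh3. Without TGF-beta, PRMT1 siRNA and both siRNAs differed from control siRNA mainly through Cdh2. For p53 siRNA without TGF-beta Cdh2 was lower (log2 -0.11 ± 0.07) and Cdh3 higher (0.08 ± 0.07), neither called. The ratio has no test of its own. The ratio of Cdh11 to Cdh3 was 2.47 and 2.70 with control siRNA and 5.77 and 6.36 with TGF-beta, and with PRMT1 siRNA 2.57 and 2.58, and 3.08 and 3.06 with TGF-beta.

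**Figure D4:**
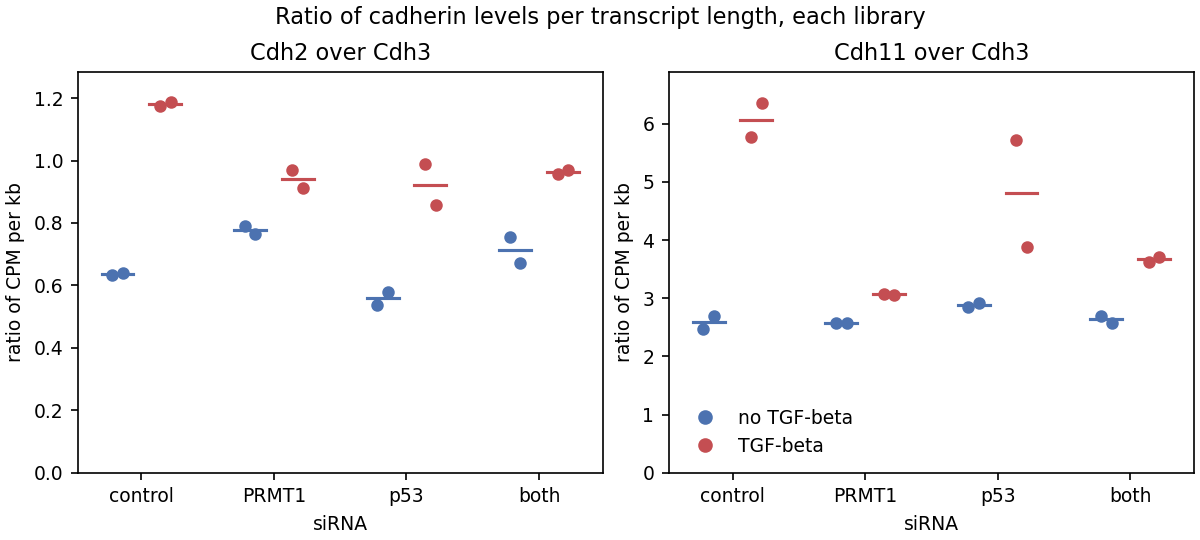
Ratio of Cdh2 to Cdh3 (left) and of Cdh11 to Cdh3 (right) in CPM per kilobase of longest transcript (vertical axes, from 0) in each of 16 libraries, by siRNA, without TGF-beta (blue) and with it (red); points are libraries and bars are means of 2. Red lies above blue in every pair, by most with control siRNA (0.633 and 0.641 against 1.17 and 1.19 on the left).

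Outside the 7, 16 other cadherin genes of the type I, type II and related groups were followed, and 5 passed the filter. With control siRNA 2 of the 5 rose with TGF-beta, 2 fell and 1 was not called, beside 38.4% of all genes called. Cdh10, a type II cadherin known from brain, rose by 4.22 ± 0.16 (log2, adjusted p = 2.55e-09), and by 3.74, 4.24 and 4.34 with PRMT1 siRNA, p53 siRNA and both, all called. Cdh24 rose from 8.47 ± 0.469 to 16.8 ± 0.579 CPM (0.98 ± 0.12, adjusted p = 5.45e-05).

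Cdh18, on chromosome 15 like Cdh10 and also a type II cadherin of brain, went the other way. It fell from 7.99 ± 0.0840 to 2.79 ± 0.597 CPM (-1.53 ± 0.18, adjusted p = 3.45e-05), and by -0.94, -2.28 and -1.13 in the other siRNA treatments in the order above. Cdh26 fell from 3.85 ± 0.570 to 0.587 ± 0.172 CPM (-2.73 ± 0.35, adjusted p = 7.03e-05). Cdh23, a cadherin of the hair cell tip link, was 1.91 ± 0.447 and 1.29 ± 0.0949 CPM (-0.56 ± 0.23, adjusted p = 0.0783). It ran from -0.78 to -0.32 over the omissions, and was called without control replicate 1 (0.0403) and in both length-offset fits (0.0245 and 0.00877). Without TGF-beta, edgeR called 0 of the 5 for PRMT1 siRNA (1 with an unadjusted p under 0.05, 0 by DESeq2) and 0 for p53 siRNA (3 and 0). Of the 15494 genes tested, edgeR called 10.3% and 2.47%, 3696 and 2171 had an unadjusted p under 0.05, and DESeq2 called 1973 and 655. Cdh23 stood nearest to a call with PRMT1 siRNA, at 3.01 ± 0.00474 CPM (0.66 ± 0.21, adjusted p = 0.0721), and Cdh18 with p53 siRNA, at 11.6 ± 1.24 CPM (0.53 ± 0.16, 0.125). Among the other settings both were called, as was Cdh26 with p53 siRNA, but not in all of them. Their sizes were 0.51 to 0.67, 0.51 to 0.53 and -0.89 to -0.87 over the settings. None of the 7 desmosomal cadherin genes followed (desmogleins and desmocollins) passed the filter. On the per-length scale all of these stayed small beside Cdh11, with Cdh10 at 2.13% ± 0.0989 of the cadherin sum in control cells with TGF-beta.

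The proteins that cadherins hold inside the cell were followed as a list of 18 catenins and actin linkers, 16 of them tested. With control siRNA 8 rose with TGF-beta and 3 fell, beside 38.4% of all genes called, and the list's median was 0.36 (log2) against -0.01 over all genes tested. The core partners were named after their values were seen. Ctnnb1 (beta-catenin) was -0.02 ± 0.08 (adjusted p = 0.863) and Ctnna1 (alpha-E-catenin) -0.13 ± 0.06 (0.128). Ctnna1 was called lower by DESeq2 (0.0191), with 15 libraries (0.0273) and in both length-offset fits (0.0145 and 0.00398). Ctnnd1 (p120-catenin, which keeps cadherins at the surface) rose by 0.45 ± 0.16 (0.0475), a call lost when any 1 of the 4 libraries was left out (0.091 to 0.219) and with a replicate block (0.0582). Ctnna2, the alpha-catenin of neurons, rose from 0.298 ± 0.0792 to 6.46 ± 0.0346 CPM (4.40 ± 0.23, adjusted p = 3.92e-08), and Actn1 (alpha-actinin, an actin crosslinker) from 281 ± 6.12 to 650.4 ± 34.5 CPM (1.21 ± 0.08). Arvcf, a relative of p120-catenin, fell from 17.4 ± 0.832 to 5.07 ± 0.696 CPM (-1.78 ± 0.12), and Ctnnal1 (alpha-catulin) from 45.0 ± 1.44 to 14.8 ± 0.0902 CPM (-1.61 ± 0.07).

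PRMT1 siRNA without TGF-beta raised 1 of these 16 genes and lowered 2, beside 10.3% of all genes called. Jup encodes plakoglobin, which takes the place of beta-catenin on cadherins and also sits in desmosomes, and it fell from 113 ± 0.672 to 67.6 ± 0.672 CPM (-0.74 ± 0.09, adjusted p = 0.000495). Ctnnal1 fell to 30.9 ± 1.61 CPM (-0.54 ± 0.07, adjusted p = 0.000718). p53 siRNA without TGF-beta (2.47% of all genes called) raised 1, Arvcf, to 29.4 ± 1.96 CPM (0.76 ± 0.10, adjusted p = 0.00346), a call lost without control replicate 2 or p53 replicate 1 (0.0544 and 0.0631), and lowered none.

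Nectins and their relatives join cells beside cadherins, and 6 of 9 listed were tested. With TGF-beta and control siRNA 4 rose and 2 fell, beside 38.4% of all genes called. Pvrl1 (nectin-1) rose from 3.69 ± 0.356 to 13.3 ± 0.607 CPM (1.85 ± 0.12, adjusted p = 3.07e-07), Pvr (the poliovirus receptor, nectin-like) from 19.8 ± 0.106 to 46.4 ± 2.50 CPM (1.23 ± 0.07), and Pvrl3 (nectin-3) from 22.0 ± 0.536 to 34.0 ± 0.639 CPM (0.63 ± 0.07). With length offsets and 16 libraries the Pvrl3 rise was 0.46 and missed the threshold (adjusted p = 0.0538). Cadm4 fell from 5.52 ± 0.763 to 1.99 ± 0.421 CPM (-1.49 ± 0.20, adjusted p = 0.000118). PRMT1 siRNA without TGF-beta (10.3% of all genes called) raised 1 of the 6, Pvr (0.38 ± 0.07, adjusted p = 0.0075), which was not called without control replicate 1, control replicate 2 or PRMT1 replicate 1 (0.0635 to 0.0959) or without the low-count filter (0.0532). Cadm4 was 3.57 ± 0.424 CPM with PRMT1 siRNA (-0.63 ± 0.19, adjusted p = 0.054) and was called lower in 7 of the 8 other settings, all but the replicate block (0.00726 to 0.0797 over the 8). p53 siRNA without TGF-beta (2.47% of all genes called) raised 1 of the 6, Cadm4, to 11.8 ± 1.32 CPM (1.09 ± 0.17, adjusted p = 0.00868). That call was lost without control replicate 1 or 2 or p53 replicate 1, while the rise was 0.94 to 1.24 over the omissions.

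Of 17 transcription factors known to repress or maintain Cdh1, 12 were tested, and with control siRNA 6 rose with TGF-beta and 1 fell, beside 38.4% of all genes called, although Cdh1 itself was at the detection limit throughout. Snai1 and Snai2, zinc finger repressors of Cdh1, rose from 15.9 ± 1.41 to 66.2 ± 0.113 CPM (2.05 ± 0.14, adjusted p = 3.39e-07) and from 21.8 ± 1.70 to 52.3 ± 5.99 CPM (1.26 ± 0.11). Foxc2, a forkhead factor of mesenchymal cells, rose from 1.56 ± 0.425 to 23.4 ± 2.97 CPM (3.89 ± 0.22). Klf4, which in epithelia maintains Cdh1, rose as well, from 27.3 ± 1.32 to 53.3 ± 3.19 CPM (0.96 ± 0.09, adjusted p = 4.95e-06). For PRMT1 siRNA without TGF-beta edgeR called 0 of the 12 (0 with an unadjusted p under 0.05, 0 by DESeq2). Over all genes edgeR called 10.3% there, 3696 had an unadjusted p under 0.05 and DESeq2 called 1973. For p53 siRNA (2.47% of all genes called) edgeR called 1 of the 12, Klf4, which fell to 18.7 ± 1.49 CPM (-0.54 ± 0.09, adjusted p = 0.0113). That call was lost without control replicate 1 or 2 or p53 replicate 1, while the fall was -0.63 to -0.47 over the omissions. With PRMT1 siRNA Zeb2 was 72.9 ± 0.367 CPM against 53.7 ± 6.10 (0.44 ± 0.22, adjusted p = 0.263), and it was called in 5 of the 8 other settings, without the low-count filter, with only the groups compared, with 15 libraries and with length offsets (adjusted p = 0.000569 to 0.314 over the 8).

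**Figure D5:**
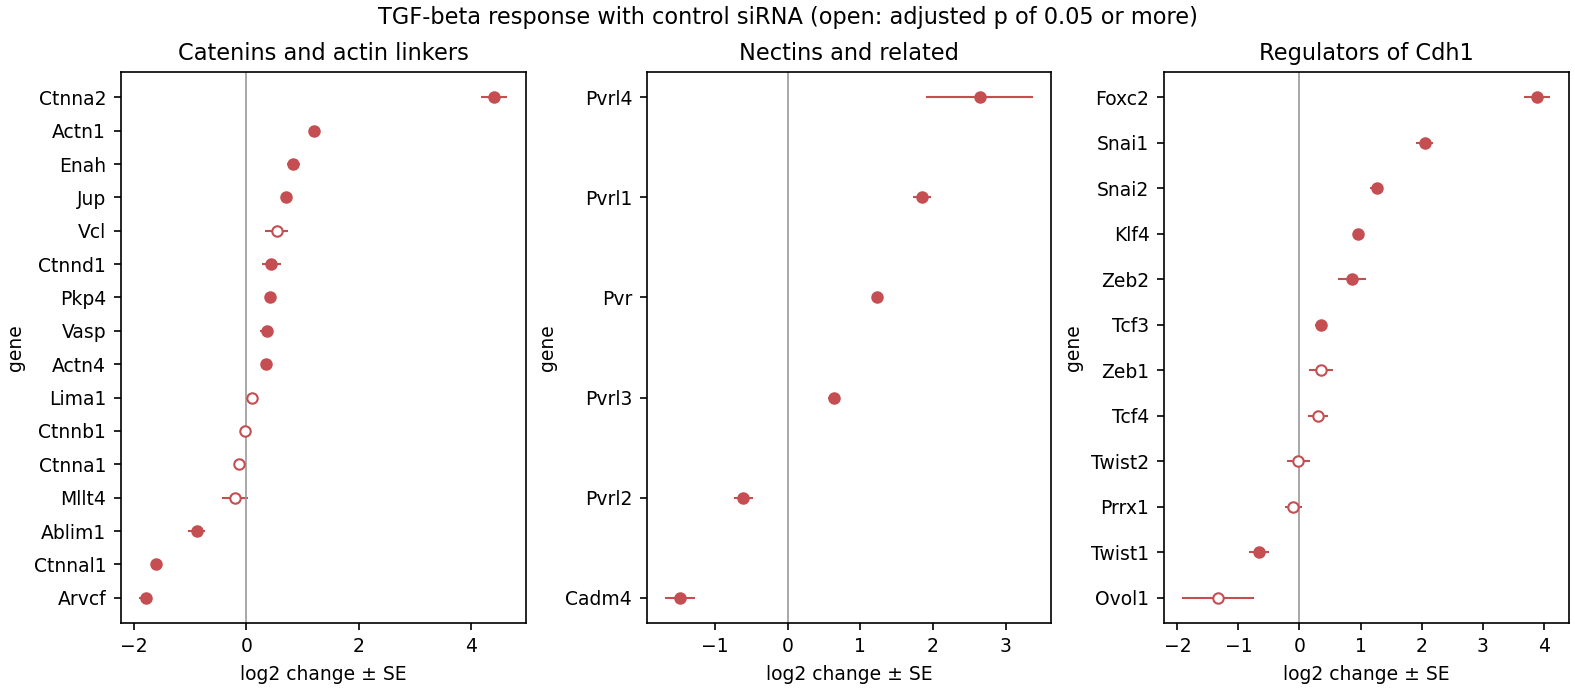
Log2 change with its standard error (horizontal axes) of the tested catenins and actin linkers, nectins and relatives, and regulators of Cdh1 (rows) in the TGF-beta response with control siRNA, edgeR, 2 libraries per group; filled points have an adjusted p under 0.05. Ctnna2 at 4.40 and Foxc2 at 3.89 lie farthest right, while Ctnnb1 at -0.02 and Ctnna1 at -0.13 lie open beside 0.

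Of 19 genes for cadherin processing, shedding and turnover, 17 were tested, and 5 rose and 4 fell with TGF-beta under control siRNA, beside 38.4% of all genes called, with a median of -0.01 as over all genes. Furin, the protease that trims cadherin precursors to their adhesive form, rose from 55.8 ± 3.33 to 143 ± 2.71 CPM (1.36 ± 0.08, adjusted p = 7e-08), and Mmp14, a membrane protease, from 294 ± 4.93 to 613 ± 14.8 CPM (1.06 ± 0.06). Psen2, a catalytic subunit of gamma-secretase, fell from 41.3 ± 0.301 to 7.47 ± 0.462 CPM (-2.47 ± 0.15, adjusted p = 1.42e-07). Mmp3, a secreted protease that can cut E-cadherin, was called lower, from 6.84 ± 0.17 CPM to 1 count in each library with TGF-beta. PRMT1 siRNA without TGF-beta raised 3 and lowered 3, beside 10.3% of all genes called, among the first Mdm2, a ubiquitin ligase best known for p53 (0.61 ± 0.09, adjusted p = 0.00145). Mmp14 was lower with PRMT1 siRNA (-0.34 ± 0.06, adjusted p = 0.00653), a call lost without control replicate 2 or either PRMT1 replicate (0.0676 to 0.0765) and without the low-count filter (0.0868). p53 siRNA without TGF-beta lowered 2 of the 17 and raised none, beside 2.47% of all genes called. These were Mdm2, at 80.0 ± 3.07 CPM (-0.41 ± 0.09, adjusted p = 0.0363), and Mmp3 (-0.88 ± 0.19, 0.0377), and both calls were lost with a replicate block and when any 1 of the 4 libraries was left out.

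Across the 8 group means, the genes most like each cadherin were found among 10744 genes averaging 5 CPM or more, by the root mean square difference of log2 CPM centred on each gene's own mean. Cdh3 was nearest to Pick1, at 0.05, then Atg14 and Snapin, with Cdh3 itself varying by 0.296 about its mean. Cdh11 was nearest to Adgrl1, at 0.0582, and Cdh2 to Tfdp1, at 0.0306, where Cdh11 and Cdh2 themselves varied by 0.172 and 0.133. These are descriptions over 8 groups, and with so many genes compared some lie close to any pattern.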

How the data were processed

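RNA of 16 MEC1 libraries was sequenced after poly(A) enrichment, per the labels' protocols. The values are expected counts as deposited, unscaled; TopHat2, Partek and mm10 are named in the submitters' processing notes, while versions, annotation and strand setting are not given in the sources used here. Within a tolerance of 0.01, 60.0% of nonzero values were whole, and all were rounded for testing. Without the strand setting, reads of Cdh2 and of Cdh4 cannot be told from those of the antisense genes Gm15485 (at most 1 count) and Gm14300 (at most 12.5).

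Sample titles gave the groups. In R 4.3.3, edgeR 4.0.16 fitted 1 mean for each group over all 16 libraries (quasi-likelihood F test, TMM scaling, filterByExpr), for 16 comparisons. Called means an adjusted p (Benjamini-Hochberg, across all 15494 genes tested) under 0.05. Every adjusted p is from this test unless DESeq2 1.42.0 is named. The other settings were DESeq2, RLE factors, no filter, only the groups compared, a replicate block, 15 libraries (leaving out the one that stood apart), length offsets with 16 or 15 libraries, and omitting each library in turn, which assumes that the lone library left varies like the other groups. Length offsets also remove a trend shared by a group. Lengths are the longest transcripts in GENCODE vM21 (42003 genes by symbol, 818 by synonym). The test was tried first on simulated counts set to vary less between replicates than the fit of 16 libraries found, which gives no check of the calls here. Promoter windows are RefSeq's.

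The 7 genes, the gene and marker lists and the settings were chosen with earlier results of these data known. From each list, up to 4 genes with the lowest adjusted p in the TGF-beta response with control siRNA, and up to 2 in the PRMT1 and in the p53 siRNA effect without TGF-beta, could be named, and for each tested cadherin the 3 genes most like it.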

Additional observations from a re-analysis of the deposited data

Results flagged for a closer look

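The TGF-beta response of Cdh3 differed between PRMT1 siRNA and control siRNA by 0.48 ± 0.10 (log2, edgeR interaction, adjusted p = 0.0266). The fall was -0.78 with control siRNA and -0.30 with PRMT1 siRNA, and all 4 libraries with TGF-beta lay below the 4 without it. The difference stayed between 0.46 and 0.51 when each of the 8 libraries was left out, with adjusted p = 0.0898 to 0.142.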

How the results depend on the processing

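Cdh3 fell with TGF-beta under all 4 siRNA treatments in every setting tried, and the call was kept in each except with PRMT1 siRNA, where it was lost without the low-count filter (0 cadherins called) and for 2 of 4 omissions. The number of cadherins called among 3 otherwise moved as follows. For PRMT1 siRNA with TGF-beta it was 3 in place of 2 with only the groups compared and in both length-offset fits. With PRMT1 siRNA and no TGF-beta it was 0 with RLE factors, without the filter and with a replicate block. In the response with p53 siRNA it was 2 with 15 libraries, 3 with length offsets and 16, and 2 with length offsets and 15. For p53 siRNA it was 1 without TGF-beta with 15 libraries and with length offsets and 15, and 1 with TGF-beta by DESeq2 and with length offsets and 16. For both siRNAs it was 1 without TGF-beta with length offsets and 15 libraries, and with TGF-beta 2 with only the groups compared, with 15 libraries and with length offsets and 16, and 3 with length offsets and 15. For p53 siRNA added to PRMT1 siRNA it was 1 without TGF-beta with length offsets and 15 libraries, and 1 with TGF-beta with only the groups compared and with 15 libraries. For the PRMT1 siRNA interaction with TGF-beta it was 2 with only the groups compared, with 15 libraries and in both length-offset fits. The calls over all genes moved as well. Wherever a fit of 15 libraries changed the number of cadherins called, it called more genes in all than the fit of 16 libraries. With only the groups compared and with length offsets and 16 libraries, they were 7650 and 3633 for PRMT1 siRNA with TGF-beta, against 2427. They were 4965 and 3596 for both siRNAs with TGF-beta, against 2023, and 4856 and 1082 for the PRMT1 siRNA interaction with TGF-beta, against 322. For PRMT1 siRNA without TGF-beta they were 1668 with RLE factors, 1734 without the filter and 1266 with a replicate block, against 1601. The cause was not tested.

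Leaving out 1 library at a time gave 1 to 2 calls for the response with control siRNA, 0 to 1 with PRMT1 siRNA and 1 to 2 with p53 siRNA. It gave 0 for PRMT1 siRNA without TGF-beta, 1 for it with TGF-beta, 0 to 3 for p53 siRNA with TGF-beta, 0 for the PRMT1 siRNA interaction with TGF-beta, 0 to 1 for that of p53 siRNA and 0 to 3 for PRMT1 with p53 siRNA and TGF-beta. The highest counts of the last 2 and of p53 siRNA with TGF-beta came from omitting the partner of the library that stood apart, in fits that called 7717, 8437 and 8622 genes in all.

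Reversed signs were few and none was of a called change in the fit of 16 libraries. In the response with PRMT1 siRNA, length offsets with 16 and 15 libraries gave Cdh2 0.0616 and 0.0634 and Cdh11 0.0744 and 0.0763, and for p53 siRNA with TGF-beta Cdh11 was 0.0498 with 15 libraries and 0.0156 and 0.0644 with length offsets. Over the omissions Cdh2 ran from -0.0500 to 0.00684 in the response with PRMT1 siRNA and from -0.0305 to 0.0935 with p53 siRNA, and Cdh11 from -0.22 to 0.26 in the response with p53 siRNA, from -0.103 to 0.0191 for PRMT1 siRNA without TGF-beta and from -0.426 to 0.0498 for p53 siRNA with TGF-beta.

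Replicate numbers showed no common pairing in the values: over 28 pairs of groups the deviations correlated at -0.401 to 0.246, with 6 over 0.1. These correlations cannot tell whether libraries of the same number were made together. With the replicate block the Cdh2 change with PRMT1 siRNA was 0.25 (adjusted p = 0.053), and the block changed no other count of cadherins called.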
